A study of Danio rerio with 8 samples.

Results

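Zebrafish (Danio rerio) embryos kept for 72 h in high glucose were compared directly with embryos kept for the same time in high salt. The comparison used 5 of the study's 8 RNA sequencing samples, 3 labelled high glucose and 2 labelled high salt, chosen by their treatment label. The other 3 samples, labelled control, did not enter the test that made the calls and are given as a reference level beside the tested values. All groups were labelled embryos, and no strain, genotype, concentration of glucose or salt, or number of embryos per sample was given in the sources used here. Libraries are named by group and by the suffix of their column in the deposited table (1m, 2f and 2m for glucose and control, 1m and 2m for salt). The meaning of that suffix was not stated. No label tied a sample to its own clutch or dish. The p-values therefore measured only how far these samples spread, and that spread may be technical. In RNA from many tissues at once, fewer cells of a type and less RNA per cell cannot be told apart.

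The comparison asked which transcripts separate embryos given a sugar from embryos given a salt. Cells in a medium of high salt lose water and take up or make small organic osmolytes such as taurine, myo-inositol and neutral amino acids; in mammalian cells the factor NFAT5 drives transporter genes for several of them. In fish embryos, ion and water balance is carried largely by ionocytes of the skin, which hold sodium pumps, ion channels and aquaporins. Glucose sensing runs through other genes. Among them are TXNIP, an arrestin-domain gene that in mammals follows cellular glucose, and the genes for enzymes that add the sugar tag O-GlcNAc to proteins or remove it.

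Totals of the 5 libraries lay between 14.65 M and 17.32 M counts, and those of the controls between 15.83 M and 16.44 M. Levels are given as CPM, the counts of a gene scaled so that all libraries have the same total. At these depths 3 counts, the limit that a count of 0 allows, were worth 0.169 to 0.227 CPM, and such limits cover counting error only. The first principal component, with 56.7% of the variance, separated the treatments: the glucose libraries lay between -45.4 and -35, salt 1m at 36 and salt 2m at 89.5. The second, with 29.1%, placed salt 1m (57.1) with glucose 1m (34.4) and salt 2m (-37.1) with glucose 2m (-37.7). The salt libraries differed from each other. They correlated at r = 0.935 over genes, below the r = 0.953 of salt 1m with glucose 1m, and mitochondrially encoded genes took 2.23% of the counts of salt 2m against 3.65% to 4.74% in the other 4. Every pair of libraries within a group differed by more than sampling noise (16.7 to 88.4 times it), so none was counted as a duplicate. Control 1m stood farthest from its own group, at r = 0.931 with control 2f and 0.925 with control 2m. Both values lay below its r = 0.937 with glucose 1m, while control 2f and control 2m correlated at r = 0.975. Markers of embryonic tissues were present in every library, with summed levels of at least 19770 CPM for skeletal muscle, 10970 CPM for liver and 1840 CPM for neurons.

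**Figure D1:**
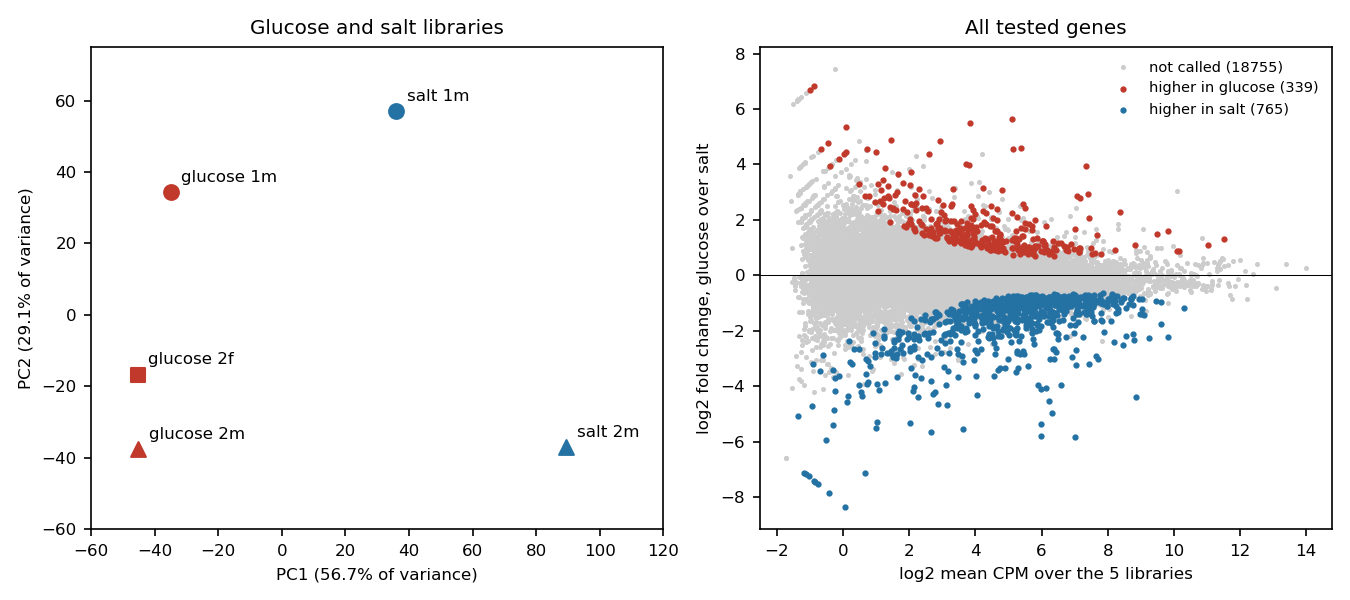
Left, the 5 tested libraries on the first and second principal components of log2 CPM (percent of variance on each axis; colour, treatment; symbol, suffix). Right, each tested gene by its log2 mean CPM over the 5 libraries and its log2 fold change, glucose over salt, with called genes coloured. More of the called genes lie below the line (765) than above it (339).

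Of 19859 tested genes, 1104 (5.56%) differed by edgeR's quasi-likelihood F-test at a Benjamini-Hochberg adjusted p of 0.05. Transcripts were higher in salt for 765 genes (3.85%) and higher in glucose for 339 (1.71%). Over all tested genes the median log2 fold change was 0.008. The glucose and salt libraries did not overlap for any of the 1104, which is also true of 45.3% of all tested genes. With no adjustment, 5298 genes had p below 0.05. The counts depended on single libraries: without glucose 2f, 5 genes were higher in glucose and 6 in salt, without glucose 2m 4 and 7, without glucose 1m 115 and 197, without salt 2m 76 and 173, and without salt 1m 1643 and 2057. Each of the 1104 genes kept its direction in each of these fits. Since the groups did not overlap for any of them, leaving out a library could hardly have turned them. Salt 2m lay farther from the glucose libraries than salt 1m for 629 of the 765 genes higher in salt (82.2%) and for 238 of the 339 higher in glucose. Scaling by library totals alone moved the median of all genes to 0.14 and gave 324 genes higher in glucose and 450 higher in salt.

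The control libraries, which took no part in the test, mostly stood near the glucose libraries for these genes. Their mean log2 CPM was nearer to the glucose mean than to the salt mean for 960 of the 1104 genes (87%), against 67.9% of all tested genes. On a scale where the salt mean is 0 and the glucose mean is 1, the median position of the control mean was 0.85, with quartiles at 0.676 and 0.996. For the following counts, controls were apart from a group when all 3 lay beyond its libraries in the direction of the other group. For 760 genes they were apart from the salt libraries but not, in this sense, from the glucose libraries, 251 of them higher in glucose and 509 higher in salt. These include genes with controls beyond the glucose libraries on the side away from salt, such as slc16a9b (54.3 to 59.3 CPM in glucose, 63.7 to 77.5 in control). For 150 genes the controls lay between the groups, apart from each. For 103 genes (22 higher in glucose, 81 higher in salt) they lay apart from the glucose libraries only. That class held 6.49% of the genes higher in glucose and 10.6% of those higher in salt. It also held 7.72% of the tested genes that were not called, so it was little enriched among called genes. Controls apart from the salt libraries only made up 74% and 66.5% of the called genes in the same order, against 34.3% of genes not called. The genes were selected for the difference between glucose and salt, so these positions are a description. The share of called genes with the control mean nearer to glucose was 95.3% without control 1m and 81.2% without control 2m.

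**Figure D2:**
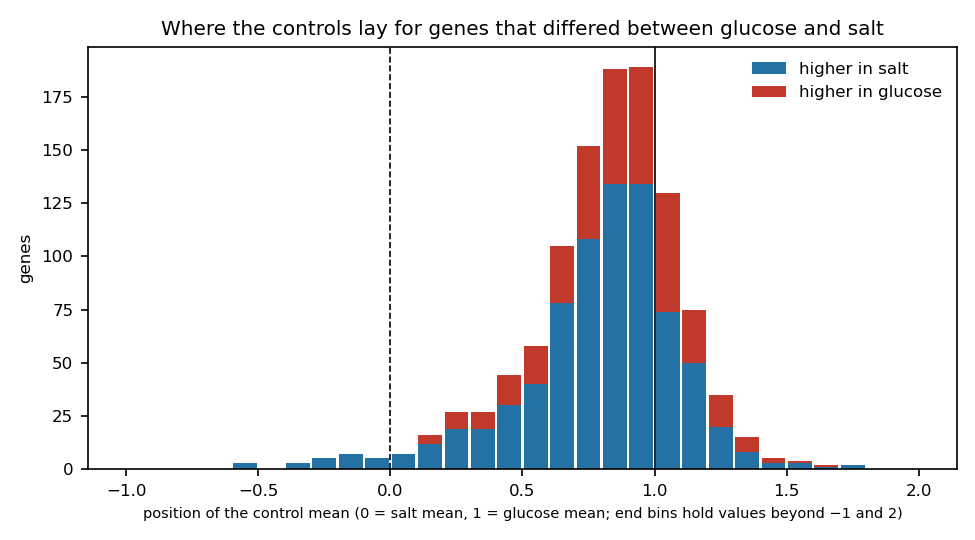
Histogram of the position of the control mean between the salt mean (0, dashed line) and the glucose mean (1, solid line) on the log2 CPM scale for the 1104 genes that differed (y axis, number of genes; blue, higher in salt; red, higher in glucose). Most genes lie near 1, with a median of 0.85.

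Genes for the uptake of organic osmolytes gave some of the widest differences, all with more transcript in salt. The taurine transporter gene slc6a6a (chromosome 8, 7100518 to 7152381) measured 1.24, 2.6 and 4.69 CPM in glucose 1m, 2f and 2m, 45.2 and 265 CPM in salt 1m and 2m, and 3.69, 2.87 and 2.44 CPM in control 1m, 2f and 2m; values below are in the same order. Positions are those of the deposited table, and GRCz11 is the build named in the submitters' processing notes. Salt 2m was the highest, and the glucose and control libraries overlapped. Its log2 fold change, glucose relative to salt, was -5.77 ± 0.79 (± SE), where negative values mean more in salt. The other taurine transporter gene, listed as SLC6A6 (2 of 2) and named after its values were seen, stood at 6.8, 5.14 and 4.75 CPM in glucose, 124 and 501 in salt and 7.7, 4.46 and 6.67 in control (-5.81 ± 0.56). How reads shared by such related copies were counted is not given in the sources used here, so the split between copies is uncertain. The myo-inositol transporter gene slc5a3b (chromosome 9, 33323937 to 33326458) was at 4.16, 5.63 and 8.58 CPM in glucose, 64.1 and 316 in salt and 12.3, 5.62 and 5.92 in control (-4.96 ± 0.64). The most abundant of these genes was slc38a2 (chromosome 4, 1750721 to 1768584), whose product imports small neutral amino acids. It stood at 49.2, 51.8 and 52.4 CPM in glucose, 552 and 1601 in salt and 45.5, 51.8 and 41.3 in control (-4.4 ± 0.41), so that its glucose and control levels lay within a narrow band.

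Enzyme genes of the same osmolytes differed in both directions. Transcripts of csad, whose product makes the taurine precursor hypotaurine, were at 47.2, 39.9 and 37.4 CPM in glucose and 169.6 and 362 in salt (-2.68 ± 0.3). In contrast miox, whose product breaks down myo-inositol, was higher in glucose, at 9.56, 12.6 and 15.3 CPM against 0.814 and 0 in salt (4.86 ± 0.83), with controls at 4.98, 8.56 and 9.51; each control lay between the groups. Of 22 tested genes of osmolyte uptake and synthesis, 5 were higher in salt (22.7%, against 5.56% of all tested genes in either direction) and 0 higher in glucose by edgeR's test, and 9 had an unadjusted p below 0.05. The median of the list was -0.386, with 10 members above 0 and 12 below. The other call was for slc6a13, a GABA and taurine transporter gene (-1.09 ± 0.2). Genes of betaine and sorbitol metabolism did not pass, with log2 fold changes of 0.32 for chdh, 0.04 for bhmt and 0.40 for akr1b1. By edgeR's test, adjusted p lay between 0.0085 for slc38a2 and 0.032 for slc6a13 among the called genes of the list and miox. The calls for slc6a6a, slc5a3b, slc38a2 and csad were lost without glucose 2f and without glucose 2m and held in each of the other fits, and that for miox was also lost without glucose 1m.

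**Figure D3:**
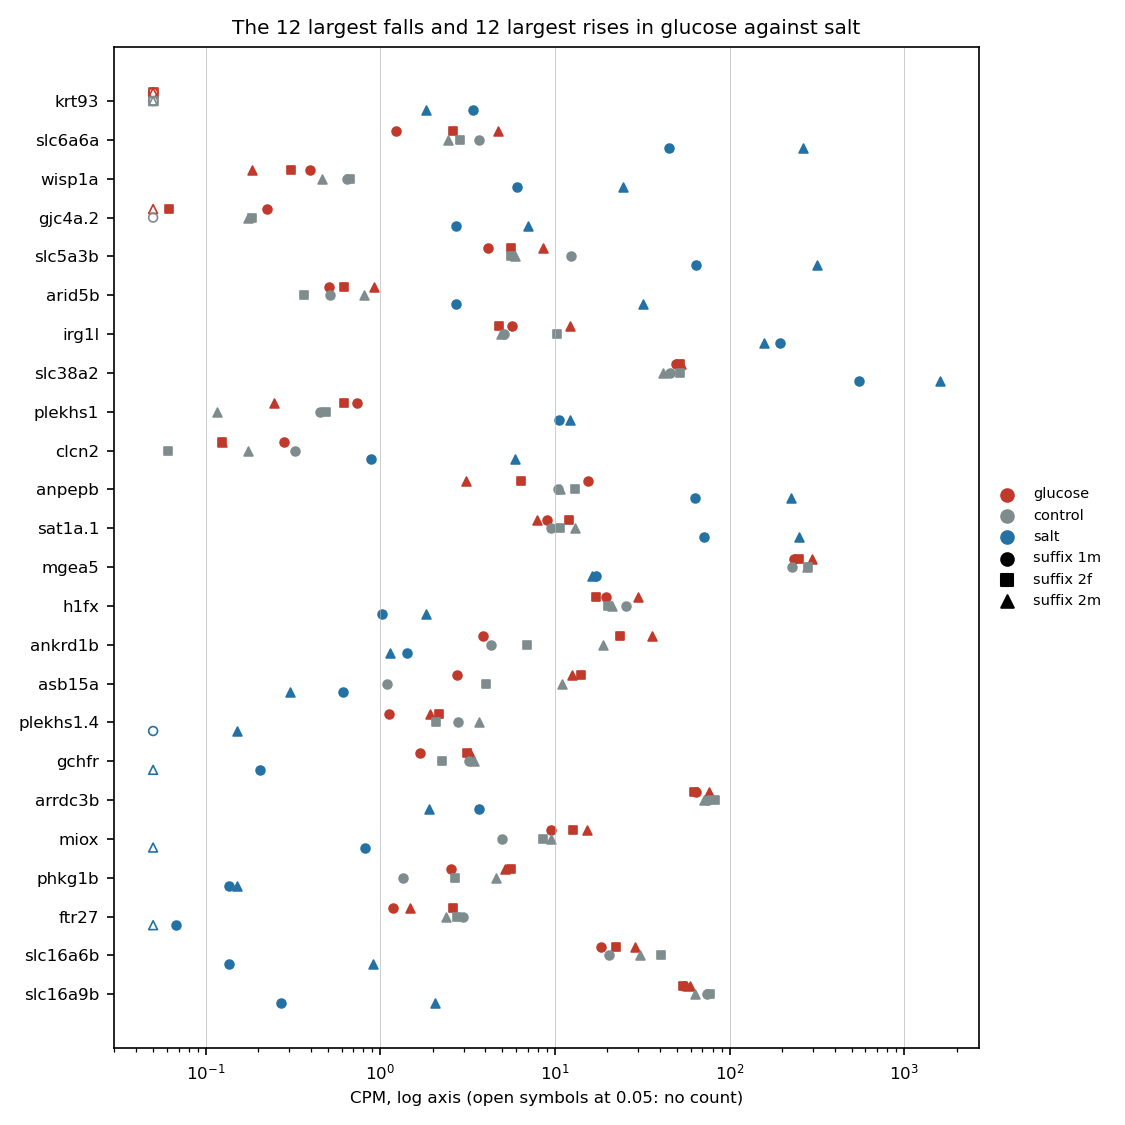
Level of the 12 genes with the largest falls and the 12 with the largest rises in glucose against salt that passed the naming rule, in each of the 8 libraries (x axis, CPM on a log scale; colour, treatment; symbol, suffix; open symbols at 0.05, no count). The control points lie with the glucose points for most genes. The salt points lie apart from the glucose points in every row, as the naming rule required.

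Of the kinases and factors of osmosensing, 2 of 19 were higher in salt and 1 higher in glucose (15.8% called), with a median of -0.723 and 16 members below 0. The kinase gene sgk1 (chromosome 23, 31713708 to 31766778), whose product regulates ion channels and transporters, measured 38.6, 39.4 and 44.7 CPM in glucose, 155 and 586 in salt and 43.5, 66.8 and 47.8 in control (-3.18 ± 0.47). Its paralog sgk2a went the other way, at 25.4, 24.6 and 19.9 CPM in glucose and 11.5 and 9.4 in salt (1.16 ± 0.23). The p38 kinase gene mapk14b was at 30.02, 27.1 and 24.9 and 46.5 and 68.9 CPM (-1.08 ± 0.22). The genes of the tonicity factor NFAT5 did not pass: nfat5b stood at 1.01, 1.61 and 2.28 CPM in glucose and 3.19 and 5.99 in salt (-1.49 ± 0.5, adjusted p = 0.11 by edgeR's test), and nfat5a had a log2 fold change of -0.8 ± 0.33. Without salt 2m the median of the list was -0.328 and 1 member was called.

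Among 45 ion and water transport genes of ionocytes and kidney, 5 were higher in glucose and 3 in salt (17.8% called), and the median was 0.044. The aquaporin gene aqp3a (chromosome 5, 42406269 to 42411661), a channel for water and glycerol in skin, was at 61.3, 90.6 and 88.2 CPM in glucose, 19.3 and 20.3 in salt and 46, 68.3 and 94.1 in control (2.01 ± 0.23). The salt libraries were alike and below every other library. The water channel gene aqp1a.1, also a marker of vessels and red blood cells, stood at 37.3, 52 and 56.2 CPM in glucose, 23.5 and 20.3 in salt and 15.7, 49.9 and 50.5 in control (1.15 ± 0.23); control 1m lay below the salt libraries. Subunit genes of the sodium pump split by paralog. The beta subunit gene atp1b1a was at 205, 179.9 and 185 CPM in glucose and 411 and 554 in salt (-1.34 ± 0.18), and the alpha subunit gene atp1a1b was at 48.2, 41.8 and 53.8 and 89.7 and 157 (-1.36 ± 0.25). The following, named after their values were seen, were also called: atp1a1a.1 was higher in salt (-0.89 ± 0.19), while atp1a1a.2 (0.84 ± 0.19), atp1a1a.3 (1.51 ± 0.31) and atp1b1b (1.26 ± 0.29) were higher in glucose. The copies atp1a1a.1 to atp1a1a.4 are related genes, so the split of reads between them is uncertain. The copy atp1a1a.4 showed 0.04 ± 0.28, with libraries that overlapped. No call was made for the chloride channel gene cftr (0.35 ± 0.39), the calcium channel gene trpv6 (0.77 ± 0.39) or the cotransporter gene slc12a10.2 (1.19 ± 0.79), nor for prolactin (prl, 1.28 ± 0.7), a hormone of fresh-water adaptation. None of 19 genes for hormones of salt and stress was called by edgeR (2 had an unadjusted p below 0.05).

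Of 38 claudins and other tight junction genes, 8 were higher in salt and 1 higher in glucose (23.7% called), with a median of -0.312 and 11 members above 0. The claudin gene cldnk had 1.24, 1.79 and 2.47 CPM in glucose, 10.6 and 29 in salt and 3.23, 1.28 and 3.54 in control (-3.43 ± 0.49). The junction adhesion gene f11r.1 was at 79.7, 61.8 and 71.6 and 137 and 155 CPM (-1.04 ± 0.17) and the tricellulin family gene marveld2b at 14.3, 15.3 and 13.9 and 32.9 and 28.7 CPM (-1.09 ± 0.19). The exception was cldn19, at 25.7, 29.4 and 35.7 CPM in glucose, 11.5 and 11.7 in salt and 12.4, 31.9 and 39.1 in control (1.39 ± 0.22), with control 1m at the level of the salt libraries. The list of connexins and pannexins, genes of gap junctions, gave 1 call among 25, cx44.2 at 6.69, 3.77 and 2.47 CPM in glucose and 29.5 and 76.4 in salt (-3.61 ± 0.5). That list left out the called genes gjc4a.1 and gjc4a.2; by the domain label of the authors' deposited table, 3 of 28 tested connexin genes were higher in salt (10.7%) and 0 higher in glucose.

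Epidermal genes differed in both directions, 6 of 43 higher in salt and 3 higher in glucose (20.9% called). The keratin gene krt93 had no count in any glucose or control library and 3.39 and 1.82 CPM in salt 1m and 2m. With 74 counts in the salt libraries together and 0 in the glucose libraries, its level was at least 44.3-fold higher in salt, set against 3 counts over the glucose group. The surface protein gene lye was at 134, 118 and 112 CPM in glucose and 439 and 305 in salt (-1.62 ± 0.2), but also at 274 CPM in control 1m. Higher in glucose were the keratin gene krt97, at 65.2, 75.4 and 84.6 CPM against 32.2 and 39 (1.08 ± 0.19), and agr2, a disulfide isomerase family gene of mucous cells, at 88.1, 71.5 and 98.8 against 39.98 and 40.4 (1.1 ± 0.19). The summed level of the epidermal list overlapped between groups, at 30320 to 30940 CPM in glucose, 25460 and 30520 CPM in salt and 30980 to 36120 CPM in control. Its median of -0.199 turned to 0.023 without salt 2m.

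Among genes of glucose sensing, members of the arrestin-domain family separated the treatments, with salt at the low end. The gene arrdc3b (chromosome 10, 43914683 to 43924650) had 64, 62.8 and 76.1 CPM in glucose, 3.67 and 1.9 in salt and 75.1, 82.1 and 71.5 in control (4.59 ± 0.32). Its paralog arrdc3a was at 61.6, 69.9 and 70.8 CPM in glucose, 15 and 10.09 in salt and 97.1, 87.2 and 66.7 in control (2.42 ± 0.23). The thioredoxin-interacting protein gene txnipa stood at 270.2, 158 and 316 CPM in glucose, 63.7 and 55.5 in salt and 290.3, 205 and 294 in control (2.06 ± 0.31). For each of these 3 genes the glucose and control libraries overlapped, and each salt library lay below them. The second copy, txnipb, did not pass (1.3 ± 0.38, adjusted p = 0.081 by edgeR's test), nor did mlxipl, the gene of the glucose-responsive factor ChREBP (1.49 ± 0.65). Adjusted p by edgeR's test was 0.0041 for arrdc3b, 0.0094 for arrdc3a and 0.021 for txnipa. The call for arrdc3b held in all 14 fits tried.

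The lowest p of all tested genes belonged to mgea5 (chromosome 13, 11856358 to 11873532), which encodes the enzyme that removes O-GlcNAc from proteins. It measured 233, 249 and 296 CPM in glucose, 17.3 and 16.3 in salt and 228, 281 and 279.6 in control, a log2 fold change of 3.95 ± 0.2 (adjusted p = 0.0017 by edgeR's test). The salt libraries were the lowest and close to each other, and the control and glucose libraries overlapped. Both called genes that feed the opposite reaction were higher in salt. The gene gfpt1, whose product controls entry into the hexosamine pathway, was at 34.6, 32.5 and 34 CPM in glucose and 50.8 and 77.3 in salt (-0.92 ± 0.21). For uap1, whose product makes the sugar nucleotide donor, levels were 42.7, 37.7 and 38.4 and 60.3 and 77.2 CPM (-0.79 ± 0.18). With mgea5 these were the only calls among 18 hexosamine and polyol genes (16.7%). The list had a median of 0.138 and 11 members above 0. The calls for gfpt1 and uap1 were lost under 7 of 13 other fits.

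Insulin and growth factor genes gave mixed values. Transcripts of ins were at 3.04, 4.27 and 8.27 CPM in glucose, 1.56 and 0.455 in salt and 0.647, 4.28 and 6.09 in control, a log2 fold change of 2.34 ± 0.68 that did not pass (adjusted p = 0.079 by edgeR's test). Control 1m stood at the level of the salt libraries. The growth factor gene igf2a was higher in salt, at 20.1, 17.9 and 19.8 against 37.6 and 52 CPM (-1.22 ± 0.2). Of 49 genes of glucose transport, insulin and glucose sensing, 5 were higher in glucose and 4 in salt (18.4% called), with a median of -0.138 that was 0.133 without salt 2m. The transporter gene slc2a2 did not pass (-0.69 ± 0.24). The transporter gene slc2a1a separated libraries by suffix rather than by treatment, at 35.9 CPM in glucose 1m, 31.7 in salt 1m and 43.6 in control 1m, against 4.32 to 12.5 CPM in the other 5 libraries (-0.25 ± 0.87). Glucagon (gcga, 0.76 ± 0.85) and glucokinase (gck, 0.44 ± 0.8) were low and not called.

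Hexokinase and phosphofructokinase genes were among the glycolysis genes that were higher in salt. Of 33 glycolysis genes 4 were higher in salt and 1 higher in glucose (15.2% called), with a median of -0.309. The hexokinase genes were at 130.1, 82.7 and 87.9 CPM in glucose and 251 and 271 in salt for hk1 (-1.38 ± 0.22) and at 23.4, 16.3 and 16.1 and 48 and 58.5 CPM for hk2 (-1.52 ± 0.23). The phosphofructokinase gene pfkpa was at 23.1, 32.3 and 36 CPM in glucose, 63.5 and 63.8 in salt and 89.6, 54 and 51.3 in control (-1.06 ± 0.22), so that the controls overlapped the salt libraries. Higher in glucose was tpi1a, a triose phosphate isomerase gene, at 7.31, 9.96 and 12.9 against 3.05 and 2.96 CPM (1.74 ± 0.36). Without salt 2m no member of the glycolysis list was called.

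Of 33 genes of gluconeogenesis and glycogen, 2 were higher in glucose and 1 in salt (9.09% called), with a median of 0.264 and 22 members above 0. The phosphorylase kinase subunit gene phkg1b, of muscle glycogen breakdown, stood at 2.53, 5.63 and 5.19 CPM in glucose, 0.136 and 0.152 in salt and 1.36, 2.69 and 4.58 in control (4.88 ± 0.68). The glycogen phosphorylase gene pygma was higher in salt, at 173, 138 and 189.9 against 295 and 337 CPM (-0.92 ± 0.18). The glucose-6-phosphatase gene g6pca.2 was at 16.2, 16.2 and 17 CPM in glucose and 7.74 and 7.66 in salt (1.1 ± 0.22), while controls ran from 5.04 to 37.1 CPM, and its call was lost in 6 of 13 other fits. Its tandem copy g6pca.1 had too few counts to be tested. The gene pck1, for the enzyme that commits carbon to gluconeogenesis, did not pass (-0.53 ± 0.34); control 2f was highest at 174 CPM.

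Monocarboxylate carriers gave the 2 largest rises in glucose relative to salt among genes named by rule. The gene slc16a9b (chromosome 12, 7555068 to 7573326), whose human counterpart carries carnitine, was at 55, 54.3 and 59.3 CPM in glucose, 0.271 and 2.05 in salt and 74.4, 77.5 and 63.7 in control (5.62 ± 0.6). Transcripts of slc16a6b (chromosome 3, 36183934 to 36199074) were at 18.4, 22.5 and 28.8 CPM in glucose, 0.136 and 0.91 in salt and 20.4, 40.7 and 30.7 in control (5.49 ± 0.6). The salt level of both was near or below 3 counts in salt 1m and higher in salt 2m. With slc16a4 (1.28 ± 0.28), 3 of 16 members were higher in glucose and 0 in salt (18.8% called); the median of the list was 0.193, so the difference lay in these members. The nuclear receptor gene pparaa, a regulator of fatty acid oxidation, was likewise higher in glucose, at 6.8, 13 and 13.4 CPM against 1.49 and 1.9 in salt, with controls at 8.54, 11.2 and 11.4 (2.7 ± 0.43); it was the only call among 25 genes of fatty acid oxidation. The uncoupling protein gene ucp2, named after its values were seen, was at 162, 184 and 183 CPM in glucose and 79.7 and 30.7 in salt (1.67 ± 0.37).

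Genes of sterol synthesis stood higher in salt nearly throughout: 24 of 25 had a log2 fold change below 0, with a median of -1.074, and 6 were called (24%), none higher in glucose. The squalene epoxidase gene sqlea was at 6.86, 5.14 and 4.08 CPM in glucose, 36.4 and 77 in salt and 16.1, 9.41 and 6.32 in control (-3.4 ± 0.36). The lanosterol demethylase gene cyp51 was at 12.5, 13.1 and 10.06 CPM in glucose, 40.3 and 128 in salt and 18.8, 16.1 and 14.8 in control (-2.82 ± 0.43). For tm7sf2 (-3.11 ± 0.59) and ebp (-1.57 ± 0.33), later enzymes of the pathway, salt 2m lay at 44.2 and 30.5 CPM against 8.69 and 14.9 CPM in salt 1m. The mean log2 CPM of the list, relative to controls, was 1.42 in salt 2m, 0.217 in salt 1m and -0.337 to -0.2 in glucose. Without salt 2m the median was -0.537 and 2 members were called. The fatty acid synthase gene fasn was at 13.5, 14.8 and 18.9 CPM in glucose and 32.6 and 104 in salt (-2.11 ± 0.43), the only call among 19 genes of fatty acid synthesis.

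Genes of amino acid import and of the response to amino acid shortage were called mostly with more transcript in salt. Of 46 amino acid transporter genes 8 were higher in salt and 1 higher in glucose (19.6% called), with a median of -0.476. The neutral amino acid transporter gene slc38a4 was at 51, 58.3 and 56.1 CPM in glucose, 224 and 609 in salt and 24.2, 44.4 and 43.9 in control (-2.92 ± 0.37); each glucose library lay above each control. The glutamine transporter genes slc38a5b (-1.14 ± 0.22) and SLC1A5 (-1.6 ± 0.27) were also higher in salt. Opposite to these was slc43a2b, a gene for a carrier of branched amino acids, at 177, 199.8 and 147 against 86.1 and 89.4 CPM (0.99 ± 0.18). Of 37 genes of amino acid stress, which share members with the transporter list, 7 were higher in salt and 0 in glucose (18.9% called), with a median of -0.577. The stress factor gene atf4a was at 317, 247 and 281 CPM in glucose, 516 and 627 in salt and 279.9, 319 and 299 in control (-1.02 ± 0.18), and the mitochondrial folate enzyme gene mthfd2 at 53.4, 51.7 and 44 and 96.1 and 214 CPM (-1.64 ± 0.31).

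Of 21 urea cycle and nitrogen genes 2 were higher in salt and 0 in glucose (9.52% called), with 10 members above 0 and a median of -0.127. The arginase gene arg2 had 11.2, 17.9 and 13.5 CPM in glucose, 73.1 and 361 in salt and 31.3, 31.9 and 21.3 in control (-3.94 ± 0.59), and the ornithine aminotransferase gene oat had 8.32, 6.25 and 11.2, 28.6 and 63.8 and 5.24, 8.01 and 6.55 CPM (-2.43 ± 0.38). The polyamine acetyltransferase gene sat1a.1 was at 9.0, 12 and 7.9 CPM in glucose, 71.7 and 249.8 in salt and 9.51, 10.7 and 13.1 in control (-4.06 ± 0.48). The aminopeptidase gene anpepb, of intestinal and renal brush borders, was at 15.6, 6.37 and 3.09, 63.8 and 225 and 10.5, 13.1 and 10.7 CPM (-4.11 ± 0.71). For each of these 4 genes salt 2m was the highest library.

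Every call in the heat shock and unfolded protein response lists had more transcript in salt, and the controls spread across the range. Of 30 heat shock genes 9 were higher in salt and 0 in glucose (30% called), with a median of -0.658. The mitochondrial chaperonin gene hspd1 stood at 395, 294 and 239 CPM in glucose, 789.7 and 818 in salt and 689, 429 and 313 in control (-1.38 ± 0.23), so that control 2m lay within the glucose range and control 1m nearest to the salt libraries. The co-chaperone genes bag3 (-1.63 ± 0.28) and dnajb1b (-2.02 ± 0.34) and hspa4a (-1.11 ± 0.19) were called as well. Of 29 genes of the unfolded protein response, in which the endoplasmic reticulum raises its folding capacity, 7 were higher in salt and 0 in glucose (24.1% called), with a median of -0.59 and 26 members below 0. The chaperone gene hspa5 was at 399, 378 and 262 CPM in glucose, 712 and 872 in salt and 614, 548 and 375 in control (-1.19 ± 0.22), and hyou1 at 102, 90.8 and 66.8, 231 and 201 and 177, 137 and 86.9 CPM (-1.32 ± 0.21). The genes atf6 (-0.76 ± 0.16) and xbp1 (-0.76 ± 0.17) of the same list passed with smaller differences. Relative to the control mean, the heat shock list scored 0.313 and 0.17 in the salt libraries, -0.531 to -0.142 in glucose and -0.506 to 0.609 in control, and without salt 2m 1 member of each list was called, with medians of -0.648 for the heat shock list and -0.566 for the unfolded protein response.

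Of 35 glutathione and NRF2 genes 5 were higher in salt and 0 in glucose (14.3% called), with a median of -0.296. The peroxiredoxin gene prdx1 was at 116, 125 and 127 CPM in glucose, 331 and 434 in salt and 628, 195 and 269 in control (-1.64 ± 0.17). Every control lay above every glucose library, and control 1m exceeded the salt libraries. The same held for gclc, which encodes the catalytic subunit of glutathione synthesis, at 76.1, 71.8 and 60.3 CPM in glucose, 160.4 and 149 in salt and 239, 116 and 92.3 in control (-1.16 ± 0.17). Its partner subunit gene gclm was at 37.7, 32.3 and 29.7, 71.1 and 108 and 101, 38.5 and 46.7 CPM (-1.43 ± 0.22). For the glutathione reductase gene gsr the levels were 41, 39.1 and 37.2, 108 and 227 and 76.9, 57.4 and 67.8 CPM (-2.1 ± 0.29), with each control between the groups. The control mean was nearer to salt for 3 of the 5 called members, 2 of the 5 without control 1m, and for 144 of all 1104 called genes; the difference was not tested.

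**Figure D4:**
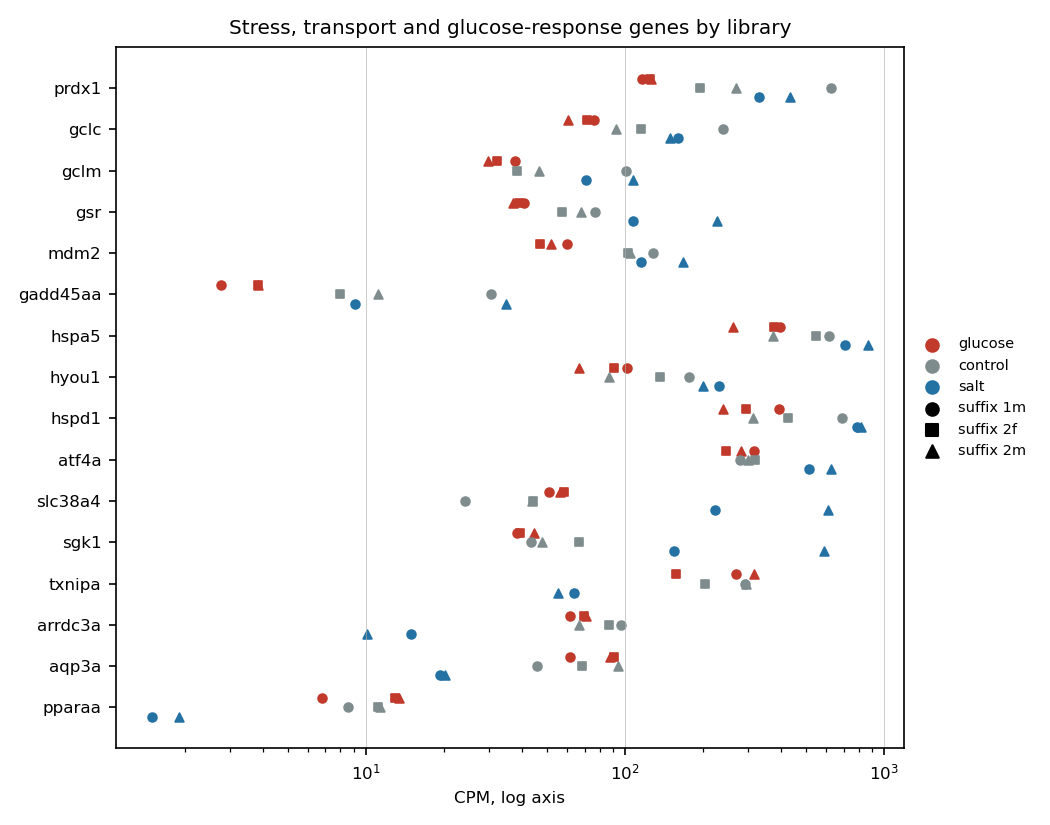
Level of 16 stress, transport and glucose-response genes in each of the 8 libraries (x axis, CPM on a log scale; colour, treatment; symbol, suffix). Controls lie with the glucose libraries for sgk1, atf4a, txnipa and aqp3a, and above them for prdx1, gclc, gsr and mdm2.

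Of 32 p53 target and apoptosis genes, 4 were higher in salt and 2 higher in glucose (18.8% called), with a median of -0.426. The ubiquitin ligase gene mdm2, a p53 target, was at 59.9, 47.2 and 51.9 CPM in glucose, 116 and 168 in salt and 129, 103 and 104 in control (-1.42 ± 0.21); the controls overlapped the salt libraries and lay above every glucose library. The stress gene gadd45aa was at 2.75, 3.84 and 3.83, 9.09 and 35 and 30.6, 7.94 and 11.1 CPM (-2.66 ± 0.52), with controls above glucose and on either side of salt 1m. The cell death effector gene baxa was at 47.5, 43.1 and 44.8, 81.9 and 167 and 71.3, 47.8 and 52.5 CPM (-1.46 ± 0.28). Higher in glucose was apaf1, which encodes the core of the apoptosome, at 37, 35 and 35.8 against 19.8 and 16.4 CPM, with controls at 37, 43.1 and 36.2 (0.99 ± 0.19). The control mean was nearer to salt for 3 of the 6 called members, with and without control 1m. The p53 list scored -0.679, -0.454 and -0.539 in glucose 1m, 2f and 2m relative to the control mean, -0.489 and 0.048 in salt 1m and 2m, and 0.271, -0.146 and -0.125 in control 1m, 2f and 2m.

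Of 38 genes of the AP-1 and immediate early group 7 were higher in salt and 0 in glucose (18.4% called), with a median of -0.916 and 33 members below 0. Transcripts of jund measured 18.2, 24.1 and 22.7 CPM in glucose, 96.4 and 257 in salt and 27.6, 25.7 and 24.9 in control (-3.03 ± 0.38). The AP-1 genes fosl2 (-2.15 ± 0.41) and junba (-2.38 ± 0.43) and the phosphatase gene dusp5 (-1.46 ± 0.29) were called too. Without salt 2m the median of this list was -0.184 and 1 member was called. Of 33 inflammation genes 4 were higher in salt (12.1% called), among them the NF-kappa-B inhibitor gene nfkbiab, at 33.3, 32.8 and 39.1 CPM in glucose and 85.6 and 259 in salt (-2.3 ± 0.4), and the interferon factor gene irf1a (-2.67 ± 0.58). The summed level of the macrophage, neutrophil and antigen presentation list overlapped, at 279 to 479.8 CPM in glucose, 221 and 407 CPM in salt and 255 to 445 CPM in control. Within it cd74b, of antigen presentation, was at 2.08, 0.742 and 1.11 CPM in glucose, 12.6 and 9.4 in salt and 44.5, 10.4 and 11 in control (-3.05 ± 0.46).

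The gene irg1l (chromosome 14, 11121038 to 11124596), related to the mammalian gene for itaconate synthesis, stood apart from the other inflammation genes. It measured 5.68, 4.76 and 12.2 CPM in glucose, 194 and 157 in salt and 5.11, 10.33 and 4.93 in control (-4.54 ± 0.39, adjusted p = 0.0068 by edgeR's test). Unlike the transporter genes, it was higher in salt 1m than in salt 2m. Its next 3 tested neighbours on the chromosome, listed as si:ch211-153b23.3, si:ch211-153b23.4 and si:ch211-153b23.5 and named after their values were seen, were also higher in salt, with log2 fold changes of -5.34 ± 0.36, -3.33 ± 0.24 and -2.94 ± 0.22. The first of them was at 2.19, 3.71 and 5.5 CPM in glucose and 177 and 130.0 CPM in salt, a similar level to irg1l. All 4 calls held in each of the 14 fits. They lie within 34 kb (chromosome 14, 11121038 to 11154988).

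Transcripts of the linker histone gene h1fx were at 19.5, 17.3 and 29.8 CPM in glucose, 1.02 and 1.82 in salt and 25.6, 20.1 and 21.3 in control (3.97 ± 0.41). Both of the following linker histone genes were named after their values were seen and held their call in all 14 fits: h1f0, at 202, 177 and 268 CPM in glucose, 30.9 and 31.5 in salt and 206, 165 and 192 in control (2.79 ± 0.23), and histh1l, at 256, 209 and 305, 27.6 and 39.96 and 305, 209 and 235 CPM (2.93 ± 0.26). None of 63 genes of the cell cycle and DNA replication was called by edgeR's test (17 had an unadjusted p below 0.05), with a median of 0.21 and 43 members above 0. The last of the 9 genes called in every fit was abcg4b, a lipid exporter family gene, at 2.81, 2.78 and 3.15 CPM in glucose, 32.5 and 39.1 in salt and 5.89, 2.51 and 4.06 in control (-3.62 ± 0.22).

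Of the other large falls, wisp1a, a secreted signalling gene of matrix, was at 0.394, 0.309 and 0.185 CPM in glucose, 6.04 and 24.6 in salt and 0.647, 0.672 and 0.464 in control (-5.64 ± 0.69). Transcripts of plekhs1 were at 0.731, 0.619 and 0.247, 10.5 and 12.1 and 0.453, 0.489 and 0.116 CPM (-4.38 ± 0.46), alike in both salt libraries. The regulator gene arid5b (-4.64 ± 0.92) and the chloride channel gene clcn2 (-4.19 ± 0.91) were uneven within salt, with 2.71 and 31.8 CPM in salt 1m and 2m for arid5b and 0.882 and 5.91 CPM for clcn2, and both calls were lost without salt 2m and without each of the glucose libraries. The gap junction gene gjc4a.2 was at 2.71 and 7.05 CPM in salt and at 0.225, 0.0619 and 0 CPM in glucose, near or below 3 counts (-5.52 ± 0.88). Of the other large rises, the muscle genes ankrd1b (4.03 ± 0.92) and asb15a (4.38 ± 0.85) were uneven within glucose: ankrd1b was at 3.88, 23.7 and 35.9 CPM and asb15a at 2.75, 14 and 12.5 CPM, against 1.43 and 1.14 and 0.611 and 0.303 CPM in salt. The low genes ftr27, gchfr and plekhs1.4 had nearly no count in salt. In glucose against salt, ftr27 had 87 and 1 counts (ratio 48.4, 8.47 to 1940), gchfr 134 and 3 (24.9, 8.33 to 122) and plekhs1.4 86 and 2 (23.9, 6.43 to 201). These ratios are scaled for depth, and their exact 95% binomial intervals cover counting error only.

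Cell type markers were compared to see whether tissue content moved with the treatment. Between 0% and 20.9% (epidermis) of the members of a list were called, against 5.56% of all tested genes. Several lists differed widely between libraries of the same group. Of 49 lens genes 47 had a log2 fold change above 0, with a median of 1.554, while 1 was called (2.04%): the lens channel gene mipa, at 36.6, 69 and 91 CPM in glucose, 11.1 and 10.8 in salt and 7.83, 45.9 and 50.05 in control (2.58 ± 0.39). The summed level of the lens list was 622, 1464 and 3982 CPM in glucose 1m, 2f and 2m, 301 and 1177 CPM in salt 1m and 2m, and 135, 859 and 1595 CPM in control 1m, 2f and 2m. In each group the 1m library was the lowest. Of 25 red blood cell genes 19 lay above 0 (median 1.23) and 2 were called higher in glucose, the haemoglobin genes hbbe1.1 (ENSDARG00000087390, 2.02 ± 0.33) and hbae1.2 (1.7 ± 0.34). Levels of hbbe1.1 were 22.8, 19.1 and 23.7 CPM in glucose, 7.13 and 3.56 in salt and 6.21, 1.83 and 26.9 in control. Control 1m lay within the salt range, control 2f below it and control 2m above the glucose libraries. For both haemoglobin genes the control mean was nearer to salt, with and without control 1m. The haem enzyme gene fech was higher in salt (-1.51 ± 0.28), and 12% of the red blood cell list was called in either direction.

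Skeletal muscle gave 2 calls among 54 genes (3.7%), both higher in glucose: the fast muscle genes mylpfa, at 2933, 4213 and 4493 CPM in glucose, 1638 and 1452 in salt and 1844, 2902 and 3789 in control (1.33 ± 0.24), and myhz2 (1.49 ± 0.31). The summed muscle list was at 36430 to 57160 CPM in glucose, 27260 and 37700 CPM in salt and 19770 to 40470 CPM in control. Of 55 fibroblast matrix genes 5 were higher in salt (9.09%), including col5a3a, at 30.7, 29.5 and 22.9 CPM in glucose and 80.9 and 98.9 in salt (-1.7 ± 0.19), thbs3a (-2.06 ± 0.4) and ogn (-1.77 ± 0.29); the median of -0.319 turned to 0.083 without salt 2m. Among 24 glia and progenitor genes (12.5% called), both tested copies of the Notch target gene her4.2 were higher in glucose (2.11 ± 0.38 and 2.52 ± 0.48). These copies share a symbol, and the split of reads between them is uncertain. The glia gene s100b was higher in salt (-1.42 ± 0.32). No call was made by edgeR for the 16 heart muscle genes (2 with an unadjusted p below 0.05), the 29 cartilage, bone and notochord genes (3) or the 19 pancreas genes (4). Neurons (62 genes), endothelium (36), liver (36), pigment cells (40) and photoreceptors (31) gave 1 call each. Intestine (17 genes, 11.8% called) and hatching gland and early stage (23 genes, 8.7%) gave 1 call in each direction. The part of tissue content in the differences described above was not tested.

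**Figure D5:**
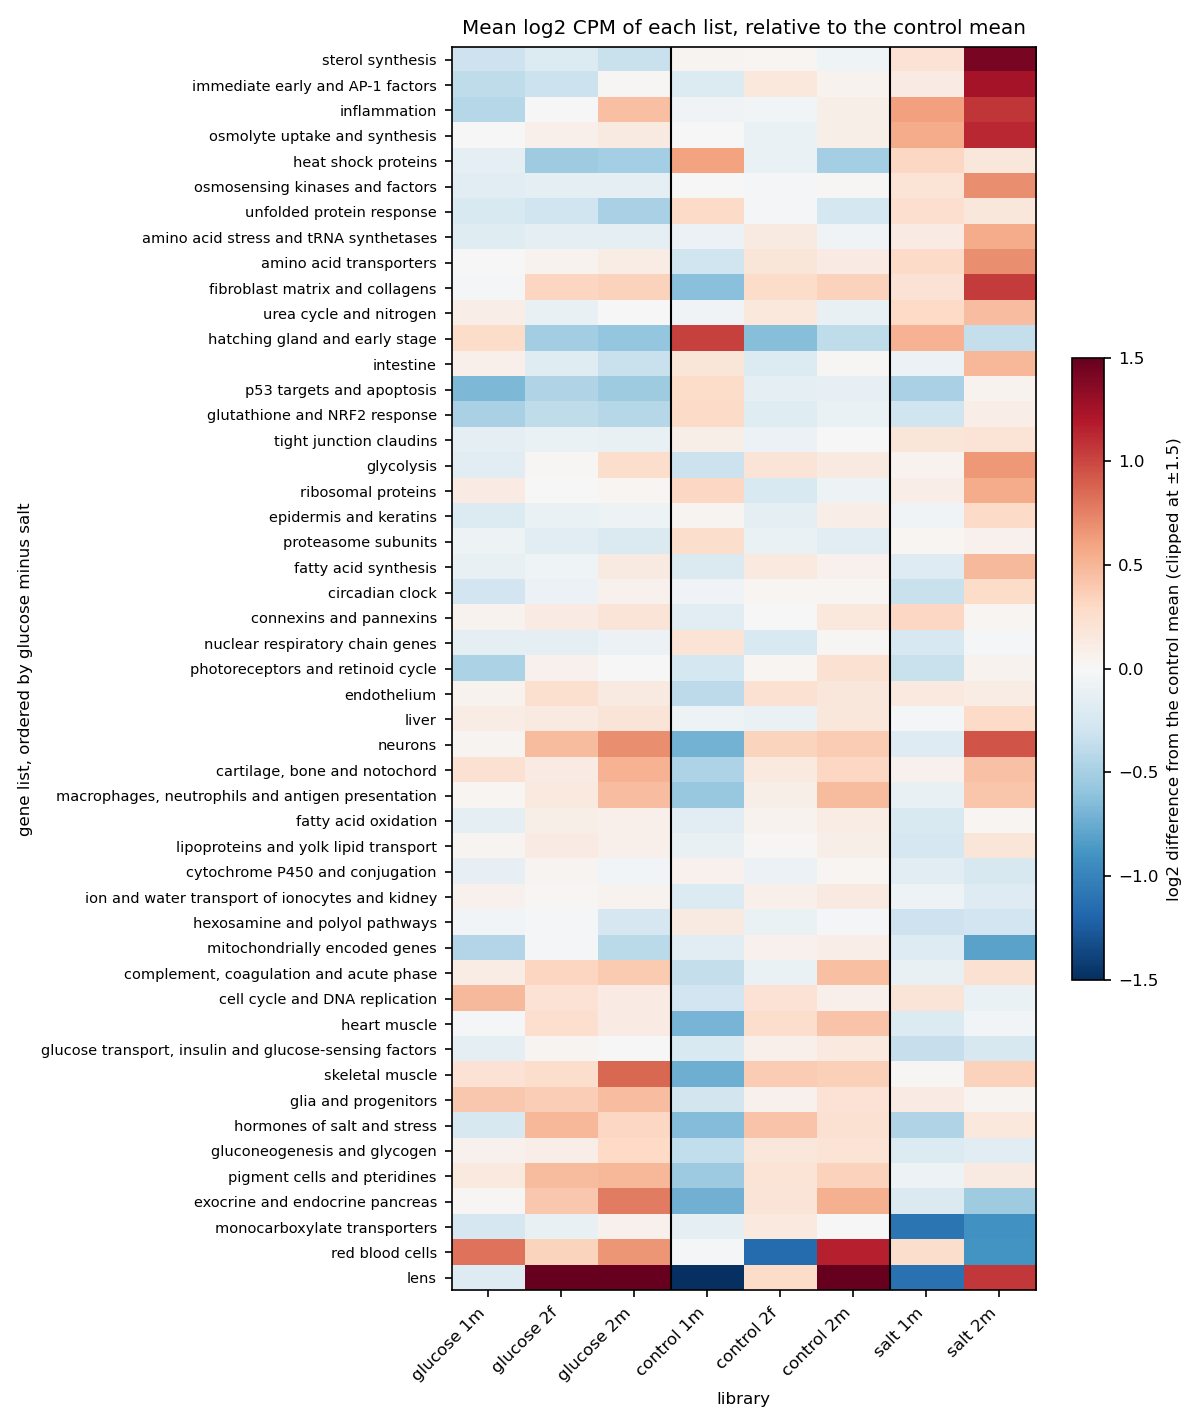
Mean log2 CPM of the members of each gene list in each library, as the difference from the mean of the 3 controls (colour, clipped at 1.5 either way; columns, libraries by treatment; rows ordered by glucose minus salt). Salt 2m is the most extreme for the sterol, AP-1 and osmolyte lists, and the lens and red blood cell rows differ between libraries of 1 treatment.

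Of 84 ribosomal protein genes 81 had a log2 fold change below 0, with a median of -0.301 that was -0.059 without salt 2m; 1 was called (1.19%), a copy of rps27.2 (ENSDARG00000100513, -1.39 ± 0.31). None of 40 proteasome genes was called by edgeR (11 had an unadjusted p below 0.05). In the respiratory chain, the succinate dehydrogenase genes sdha (-1.07 ± 0.21) and sdhb (-0.81 ± 0.15) were the 2 calls among 93 nuclear genes (2.15%), both higher in salt. Of 13 protein-coding genes of the mitochondrial genome 11 were above 0. The 1 call among them, mt-atp8, went the other way, at 11.4, 15.5 and 10.5 CPM in glucose and 37.9 and 33.4 in salt (-1.52 ± 0.23). That gene is 165 bases long and a very small part of the list, which summed to 24590 to 44490 CPM in the tested libraries. Of all 31 tested genes of that genome 4 were called (12.9%), among them 1 of 2 rRNA genes and 2 of 16 tRNA genes. Clock genes differed by member: per2 (-1.63 ± 0.3), arntl2 (-1.02 ± 0.18) and nfil3 (-0.81 ± 0.17) were higher in salt and cry1b higher in glucose, at 5.0, 7.24 and 6.54 CPM against 0.882 and 1.21 (2.57 ± 0.42). For per2 the controls ran from 113 to 324 CPM, across the range from glucose (92.9 to 115 CPM) to salt (206 and 440.5 CPM).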

How the data were processed

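RNA sequencing read counts per gene were analysed from 8 zebrafish embryo libraries. The submitters' processing notes name build GRCz11 and, with no roles or settings, featureCounts 1.5.0-p3, HISAT2 2.0.5, edgeR 3.22.5, StringTie 1.3.3b and DESeq2. Array hybridization is described in the labels' protocol, but the deposited values are whole-number counts that sum to different totals, so they were treated as sequencing counts. The deposited table also gives, as other columns, gene length and coordinates, which were not checked against a genome.

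Columns were matched to groups by name. The table names 31953 genes, of which 5776 had no count in the 5 tested libraries. A symbol table held 26121 of the identifiers and supplied ordinary symbols for 1883 genes with clone-style names. Counts of the 5 libraries were filtered with filterByExpr by group, scaled by TMM (factors 0.887 to 1.056) and tested with edgeR 4.0.16 in R 4.3.3 (quasi-likelihood F-test, 3 residual degrees of freedom, median biological coefficient of variation 0.262), with Benjamini-Hochberg adjustment over 19859 genes and a threshold of 0.05. Control libraries were scaled to the same reference library. Levels are CPM over scaled totals; SE is the log2 fold change divided by the square root of F. Principal components used 18315 genes with log2 CPM at a prior count of 2.

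In simulated counts for 19487 genes, 200 were changed. Recovery was 14.04% for 2-fold, 68.49% for 4-fold and 85.71% for 8-fold changes, and 9 unchanged genes were called. Alternatives were other scalings, count filters, DESeq2 1.42.0, limma voom (limma 3.58.1), all 8 libraries in 1 fit, a block for the suffix digit, and leaving out each library.

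The comparison and the 49 gene lists were chosen with earlier results of these data known. Genes were named by rule: the 12 largest rises and falls among called genes that had an ordinary symbol, did not overlap between groups and averaged 1 CPM or more; up to 4 called members of each list in order of p; and 26 genes of glucose and salt physiology, of which 25 could be tested. Others are said to be named after their values were seen. Promoter and protein sequences were not analysed here.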

Additional observations from a re-analysis of the deposited data

How the results depend on the processing

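The number of genes higher in glucose and higher in salt (339 and 765) depended most on the test and on single libraries. It was 616 and 1044 with no count filter, 1223 and 1686 by DESeq2, 205 and 569 by limma voom and 324 and 450 with library totals alone. It stayed within 1.5 times with DESeq2 size factors (337 and 750), a stricter filter (341 and 724) and all 8 libraries in 1 fit (390 and 627). With a replicate block for the suffix digit it was 1544 and 2165. Deviations from group means correlated at 0.433 between the 1m libraries, 0.406 between the 2m libraries and 0.124 between glucose 2f and salt 2m. The 2 salt libraries deviated from their mean by opposite amounts, so each value recurs with its sign changed for the other salt library. These values are therefore not separate agreements. With 2 shared digits and no label behind them, the digits are not shown to pair the samples. Leaving out 1 library gave 4 to 1643 genes higher in glucose and 6 to 2057 higher in salt; where a salt library was left out, the lone one is assumed to vary like the glucose libraries. The share of called genes with controls nearer to glucose (87%) was 88.9% with library totals alone, 86.8% with the stricter filter and 78.8% to 100% with a tested or control library left out (the highest from 11 genes). Of values for named genes under an alternative, 1261 kept direction and side of the threshold, 462 lost the call, 9 gained it and 8 turned. Gained calls include nfat5b, txnipb and slc2a2 with the replicate block, and nfat5b, txnipb and ins without salt 1m. Those that turned were small in the main fit. They were slc2a1a with the replicate block (0.003), atp1a1a.4 by limma voom (-0.006), and fits with 1 library left out, whose log2 fold changes ran from -0.92 to 0.012 for pck1 (above 0 without salt 2m), from -1.56 to 1.15 for slc2a1a (above 0 without glucose 2f, glucose 2m or salt 1m) and from -0.285 to 0.192 for atp1a1a.4 (below 0 without glucose 1m or salt 2m). Of list medians under an alternative, 560 moved by less than the spread between replicates and 77 by more, and 31 of 49 lists kept their sign with each library left out. The causes were not tested. In the simulated counts, with 200 changed genes, 14.04% of 2-fold changes were recovered. That share may not hold for the deposited counts, where 1104 genes were called. Some of these differed by less than 2-fold, the smallest by a log2 fold change of 0.633 in size.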

Other observations

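Some genes that differed lay next to each other among the tested genes of a chromosome and had the same direction. They formed 49 runs of at least 2 and 4 runs of at least 3. All 4 of the longer runs were higher in salt, as were 765 of the 1104 called genes. The number of runs to be had from the share of called genes alone (5.56%) was not worked out. Which genes form the runs was read after the calls were known, and no test was made. Besides the run around irg1l, the gap junction genes cx44.2, gjc4a.1 and gjc4a.2 lie within 64.3 kb (chromosome 6, 18941182 to 19005475). Of these gjc4a.1 had no count in any glucose library and 1.56 and 1.21 CPM in salt 1m and 2m, at least 23.3-fold higher in salt when set against 3 counts over the glucose group, and controls at 0.259, 0.122 and 0.058 CPM. The syntaxin genes stx11b.2 (-1.31 ± 0.28) and stx11b.1 (-1.93 ± 0.29), of vesicle fusion, adjoin si:dkey-25e12.3 (-2.06 ± 0.48) on chromosome 20 (26636252 to 26652143). On chromosome 13 (6908864 to 7015543), AIFM2 (-1.12 ± 0.2) adjoins the long non-coding genes si:ch73-49p17.1 (-4.21 ± 0.6) and si:dkey-45k15.3 (-3.91 ± 0.67). Overlapping genes share reads where counting is unstranded, and whether strand was used is not given in the sources used here. By the listed coordinates, the genes within each of the 4 longer runs do not overlap. The closest are irg1l, which ends at 11124596, and si:ch211-153b23.3, which starts at 11124782.

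Protein domain labels in the authors' deposited table give further groups, counted after the calls were known and with no test; of all tested genes 3.85% were higher in salt and 1.71% higher in glucose. Of 17 tested genes labelled HSP70, 6 (35.3%) were higher in salt and 0 in glucose, among them hspa9 (-0.94 ± 0.17). Of 26 labelled as sodium-dependent neurotransmitter symporters, 6 (23.1%) were higher in salt and 1 (3.85%) in glucose. The 6 include, beside the taurine transporters, slc6a16a at 10.06, 12.5 and 15.7 CPM in glucose, 31.2 and 152 in salt and 12.4, 13.4 and 13.2 in control (-2.84 ± 0.56), and slc6a16b (-0.91 ± 0.2). Of 61 mitochondrial carrier genes 6 (9.84%) were higher in salt and 2 (3.28%) in glucose. The 6 include the glutamate carrier gene slc25a22, at 385, 411 and 313 CPM in glucose and 1127 and 2319 in salt (-2.22 ± 0.3). Of 95 helix-loop-helix genes 6 (6.32%) were higher in glucose and 2 (2.11%) in salt. The 6 include ascl1a, a factor of neural progenitors, at 32.9, 39.4 and 33.5 CPM in glucose, 13.8 and 14.8 in salt and 11.1, 27.9 and 25.9 in control (1.3 ± 0.2), and hes2.1 at 2.36, 6.81 and 5.8, 0.475 and 0.303 and 0.194, 2.32 and 2.73 CPM (3.64 ± 0.66). For ascl1a every control lay below every glucose library, and control 1m was at the salt level.

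The genes whose controls lay apart from glucose only include the retinoid enzyme gene cyp27c1, at 30.8, 27 and 24.9 CPM in glucose, 92 and 78.4 in salt and 216, 71.4 and 58.9 in control (-1.63 ± 0.18), and the mitochondrial stress gene higd1a, at 51.2, 45.7 and 34.5, 146 and 258 and 187, 56.2 and 54.3 CPM (-2.2 ± 0.27). Those with controls between the groups include the ceramidase gene acer1, at 5.9, 7.92 and 7.22, 41.5 and 57.6 and 9.7, 11.7 and 11.9 CPM (-2.82 ± 0.23), and pogzb, at 64.4, 61.3 and 67.7, 22.1 and 12.8 and 48.1, 54.4 and 51.6 CPM (1.88 ± 0.26).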
